A study of Rattus norvegicus with 6 samples.

Results

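The proteasome genes described here are the rows of the gene table whose symbol starts with Psm, then a letter from a to g and a number, with the 3 interferon-inducible core subunits Psmb8, Psmb9 and Psmb10 set apart. The rule finds 46 of the 19088 genes in the table, and it uses names only, not measured values. The 46 members comprise 7 alpha and 8 beta subunits of the core particle, 6 ATPases and 3 other subunits of the base, 8 lid subunits, 7 assembly chaperones, 4 activators and 1 inhibitor. The 2 remaining rows, Psmc3ip and Psme3ip1, carry the name of a subunit but encode a meiotic recombination factor and a nuclear protein that binds an activator, so they were kept apart.

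The proteasome degrades proteins that carry ubiquitin chains. Its core particle is a barrel of stacked rings, with alpha rings that gate the entrance and beta rings that hold the protease sites, and it is capped by a regulatory particle whose base unfolds the substrate and whose lid removes the ubiquitin. Dedicated chaperones build the rings, and alternative caps, the Psme activators, open the core without a need for ubiquitin. In the intervertebral disc the nucleus pulposus is the gel-like centre, and its cells are known for a matrix rich in proteoglycan and for notochordal descent.

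Primary nucleus pulposus cells of the rat SD strain were grown in serum-containing medium. The rShh group (3 samples) received recombinant Sonic hedgehog, a secreted ligand of the hedgehog pathway, at 200 ng/ml for 48 h, dissolved in DMSO. The Control group (3 samples) received DMSO alone for 48 h. Polyadenylated RNA was sequenced, and the question was how the added ligand changed gene expression. The labels give neither the age nor the number of animals, nor say that samples within a group are independent cultures. Each p-value here is therefore judged against sample-to-sample spread that may be technical.

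Counts assigned to genes ranged from 50758195 to 55501124 per Control library and from 65116846 to 70031072 per rShh library. The Y-linked genes Ddx3, Eif2s3y and Kdm5d had 0 counts in every Control library and at least 2235 counts each in every rShh library, so the treatment and a difference in the sex of the source animals cannot be told apart in any result here. Of 15 nucleus pulposus marker symbols 10 had a row, and of the 9 tested 3 rose, 5 fell and 1 did not pass in edgeR, with a median log2 change of -0.39. Their summed level was 422 to 437 CPM (counts scaled to a library of equal size) in Control and 1164 to 1175 CPM in rShh, with Acan, the cartilage proteoglycan, rising from 56.5 to 586 CPM, Hif1a from 78.6 to 253 CPM and Slc2a1 from 88.7 to 193 CPM. Cd24 fell from 51.2 to 15.4 CPM, Pax1 from 89.8 to 68.5 CPM, Krt8 from 12.6 to 2.11 CPM, Foxa2 from 2.09 to 0.588 CPM and Col2a1 from 1.61 to 0.107 CPM. Krt18 was near 0, at a mean of 0.0530 and 0.0204 CPM. Markers here other than Acan, Hif1a and Cd24 were named after their values were seen. All 12 of 12 proliferation markers were higher in rShh (179 to 186 against 672 to 684 CPM summed), and the mitochondrial share of counts was 1.97 to 2.28% against 3.25 to 3.36%. Markers of other cells were low: leukocyte 11.0 to 14.1 against 12.9 to 15.5 CPM with 0 of 3 tested genes changed, endothelial 4.71 to 6.49 against 1.67 to 1.81 CPM from Tek alone, and erythroid 0 against 0.158 to 0.279 CPM from Alas2 alone. Muscle markers summed to 55.9 to 92.7 against 84.5 to 107 CPM. Most of this was Acta1, at 54.0 to 91.9 against 76.8 to 99.9 CPM, which did not pass (edgeR adjusted p = 0.388). The other of the 2 tested, Des, rose from 1.19 to 7.34 CPM. The part of these differences in the proteasome results was not tested.

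The proteasome genes as a whole shifted little, and the shift differed by subunit class. In edgeR's quasi-likelihood fit 27 of the 45 tested members passed an adjusted p of 0.05, or 60.0%, beside 60.3% of the 14775 genes tested. The direction was uneven: 8 members were higher in rShh (17.8%, beside 31.5% of all genes) and 19 were lower (42.2%, beside 28.8%). Changes were small, with 8 members both called and at least 1.5-fold different (17.8%, beside 35.3%), and 1, Psmg3, past 2-fold. The median absolute log2 change was 0.23 over the members and 0.49 over all genes. For 33 members the groups did not overlap in CPM (73.3%, beside 68.1% of all genes), 10 of them higher in rShh (beside 35.7% of all genes) and 23 lower (beside 32.5%). The members together took 0.428 to 0.456% of all counts in Control and 0.416 to 0.421% in rShh. In bulk RNA, fewer cells of a type and less RNA per cell cannot be told apart.

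**Figure D1:**
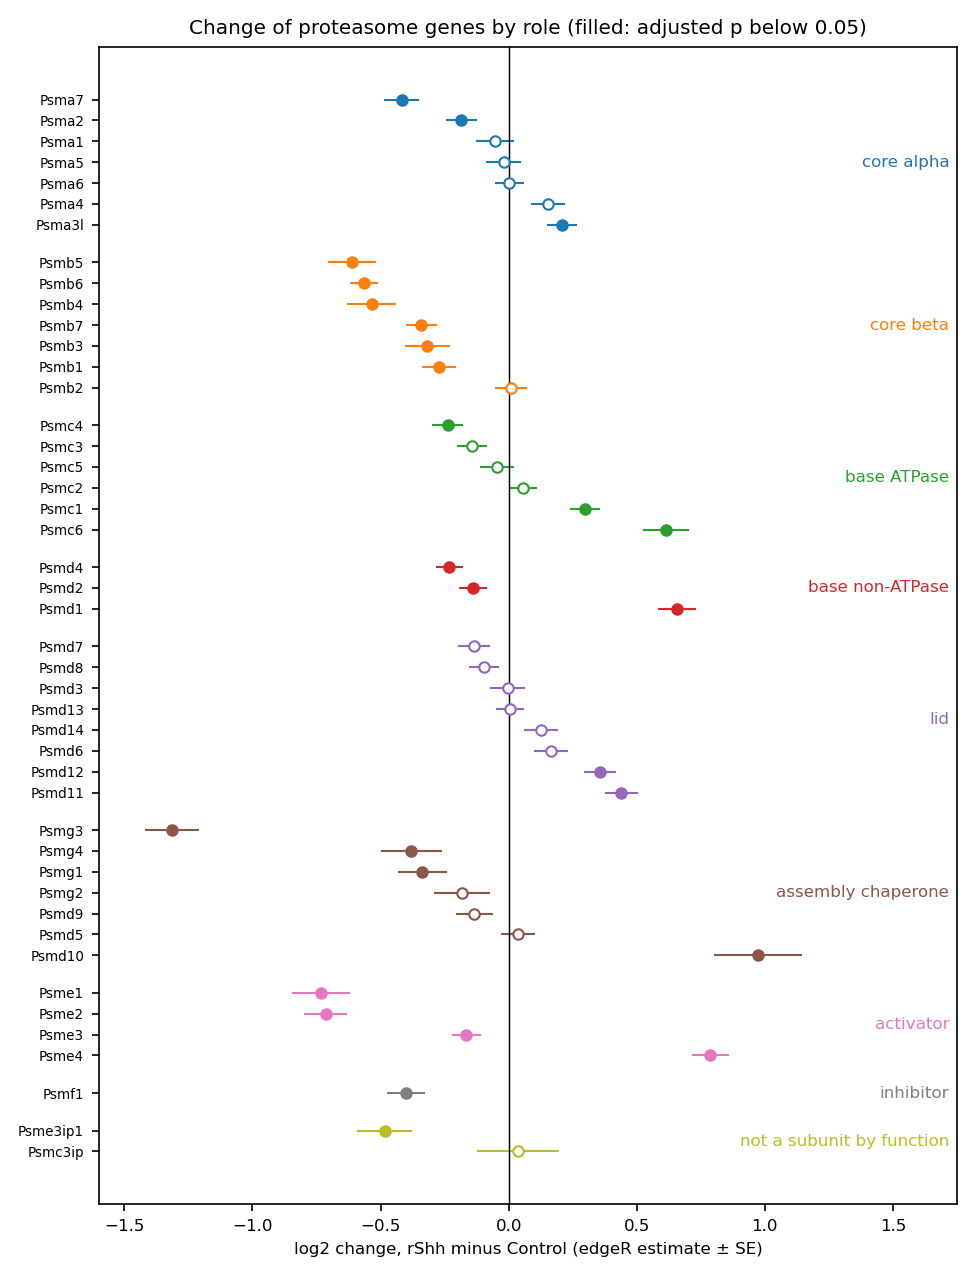
Log2 change of each tested member (horizontal axis, rShh minus Control, edgeR estimate with standard error bars, 3 libraries per group), grouped by role, with filled points for an adjusted p under 0.05. Of the 7 beta subunits, 6 are filled and lie below 0, beside 28.8% of all genes called lower, and Psmb2 is open at 0.01. Base and lid genes lie on both sides, from -0.24 to 0.66.

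The clearest class was the core beta ring, which carries the protease sites. Of its 7 tested members 6 fell (85.7%, beside 28.8% of all genes) and none rose (beside 31.5%). The median log2 change was -0.34, beside 0.01 for all genes. These genes are short, with a median of 842 bases, and short genes tended to fall. Among 739 genes of like length (median 827 bases) the median log2 change was -0.21. The 3 catalytic subunits were all among them. Psmb5, which provides the chymotrypsin-like site, stood at 110.2, 117 and 145 CPM in Control and at 82.9, 79.1 and 81.3 CPM in rShh. Every rShh library lay under the lowest Control library, and Control library 3 was the highest. Psmb5 fell by 0.61 ± 0.09 (SE) on the log2 scale, adjusted p = 2.52e-04 in edgeR. Psmb6, the subunit with the caspase-like site, was at 94.2, 93.6 and 93.9 CPM in Control and at 62.3, 64.0 and 64.3 CPM in rShh. Libraries within a group were nearly level and the groups lay far apart. Psmb6 fell by 0.56 ± 0.05 on the log2 scale (adjusted p = 1.10e-05, edgeR). Psmb7, with the trypsin-like site, was at 157, 151 and 171 CPM in Control and at 128, 123 and 127 CPM in rShh, a fall of 0.34 ± 0.06 (log2, adjusted p = 6.71e-04, edgeR). Its groups did not overlap either.

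The structural beta subunits had a like direction, apart from Psmb2. Psmb4 was at 146, 149 and 190.2 CPM in Control and at 110.3, 117 and 107 CPM in rShh, with Control library 3 again the highest and no overlap. It fell by 0.53 ± 0.10 on the log2 scale (edgeR adjusted p = 7.67e-04). Psmb3 had a log2 change of -0.32 (adjusted p = 0.00944) and Psmb1 of -0.27 (adjusted p = 0.00448), both in edgeR and both without overlap. Psmb2 gave 78.4, 71.7 and 74.3 CPM in Control and 77.6, 72.3 and 76.1 CPM in rShh, overlapping groups with a log2 change of 0.01 ± 0.06. Psmb11, the beta subunit known from the cortex of the thymus, had 4 counts in Control library 1 and 0 in the other 5 libraries, and was not tested. It lies 7355 bases from Psmb5 on chromosome 15 in the files' coordinates, whose build is not given in the sources used here.

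The promoter of Psmb5 is shown because the antioxidant response element, the site bound by Nfe2l1 and Nfe2l2, is a known element of proteasome promoters. In the 250 bases before the RefSeq start (rat assembly GRCr8, chr15:32047380-32047629, minus strand, written 5′ to 3′ along the gene), capitals mark the match to TGACNNNGC, which lies 60 bases before the start.
Psmb5: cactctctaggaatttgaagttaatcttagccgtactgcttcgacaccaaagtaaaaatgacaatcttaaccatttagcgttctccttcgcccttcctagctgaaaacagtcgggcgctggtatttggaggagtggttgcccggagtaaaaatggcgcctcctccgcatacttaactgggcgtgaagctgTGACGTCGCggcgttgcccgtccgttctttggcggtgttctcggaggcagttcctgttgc
Of the 46 members 40 were matched to a RefSeq promoter by symbol. Searched on both strands, TGACNNNGC was in 6 of these 40 (15%) and in 3373 of all 33469 promoters of the same length (10.1%). The 6 were Psmb2, Psmb5, Psmb6, Psmd1, Psmd9 and Psme4, of which 2 were higher, 2 were lower and 2 did not pass the test. Psmb5 and Psmb6 were those that fell, Psmd1 and Psme4 those that rose, and Psmb2 and Psmd9 those that did not pass. Whether the motif has a part in these changes was not tested.

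The alpha ring moved less than the beta ring. Among the 7 alpha members, 1 was higher (14.3%, beside 31.5% of all genes), 2 were lower (28.6%, beside 28.8%) and 4 missed the threshold. The median log2 change was -0.02. Psma7 was at 139, 149.8 and 165 CPM in Control and at 116, 112 and 112 CPM in rShh. No library of one group reached the other, and the log2 change was -0.42 ± 0.07 (edgeR adjusted p = 3.80e-04). Psma2 fell by 0.18 on the log2 scale (edgeR adjusted p = 0.0249). The row named Psma3l rose by 0.21 (edgeR adjusted p = 0.0121), from 107 to 119 CPM in Control to 127 to 129 CPM in rShh. Both of these smaller calls were lost under some other settings, Psma2 in 5 and Psma3l in 4 of 17, and with the trend with transcript length removed Psma3l had an adjusted p of 0.959 in edgeR. Psma1, Psma5 and Psma6 had log2 changes of -0.05, -0.02 and 0.00, and their groups overlapped. Psma4 did not overlap between groups (90.9 to 105.7 against 107 to 112 CPM) and had a log2 change of 0.15 with an edgeR adjusted p of 0.0662.

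Base and lid genes went in both directions. Of the 17 base and lid members 5 rose (29.4%, beside 31.5% of all genes), 3 fell (17.6%, beside 28.8%) and 9 did not pass. Their median log2 change was 0.00. Among the 6 ATPases that unfold the substrate, Psmc6 was at 79.8, 68.3 and 60.7 CPM in Control and at 107.5, 106 and 106 CPM in rShh. All rShh libraries exceeded all Control libraries, which were spread more widely, and Psmc6 rose by 0.61 ± 0.09 (log2, edgeR adjusted p = 1.93e-04). Psmc1 rose by 0.30 ± 0.06 (edgeR adjusted p = 0.00131), from 154, 162 and 175 to 204, 200.3 and 200.1 CPM, again with no overlap. Psmc4 fell by 0.24 on the log2 scale (edgeR adjusted p = 0.00684). Psmc2, Psmc3 and Psmc5 did not pass, at log2 changes of 0.06, -0.14 and -0.05. For Psmc3 the edgeR adjusted p was 0.0528 and the groups did not overlap.

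The 3 base subunits without ATPase activity were all called (beside 60.3% of all genes), in different directions. Psmd1, a large scaffold of the base, was at 124, 108 and 102 CPM in Control and at 183, 175 and 169 CPM in rShh. Every rShh library was above every Control library, and the log2 change of 0.66 ± 0.07 (edgeR adjusted p = 3.44e-05) was the highest of the base and lid. Psmd2, the other large scaffold, was lower by a log2 change of -0.14 (edgeR adjusted p = 0.0474). That call was lost in 11 of 17 other settings, including the omission of Control library 2 or 3 or of any 1 rShh library. Psmd4, a ubiquitin receptor, fell by 0.23 on the log2 scale (edgeR adjusted p = 0.00340).

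In the lid, 2 of 8 members rose (25%, beside 31.5% of all genes) and none fell (beside 28.8%). Psmd11 was at 90.8, 90.3 and 82.4 CPM in Control and at 112, 123 and 122 CPM in rShh, a log2 rise of 0.44 ± 0.06 (edgeR adjusted p = 1.96e-04). Psmd12 was at 82.9, 93.0 and 83.1 CPM in Control and at 112, 110.1 and 109 CPM in rShh, a log2 rise of 0.36 ± 0.06 (edgeR adjusted p = 6.38e-04). Both are structural lid subunits and neither overlapped between groups. Psmd14, the deubiquitinase of the lid, was at 60.5, 56.4 and 55.1 CPM in Control and at 61.1, 66.3 and 60.3 CPM in rShh. The groups overlapped, with a log2 change of 0.13 (edgeR adjusted p = 0.134). The other lid members, Psmd3, Psmd6, Psmd7, Psmd8 and Psmd13, had log2 changes from -0.13 to 0.17 and did not pass.

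**Figure D2:**
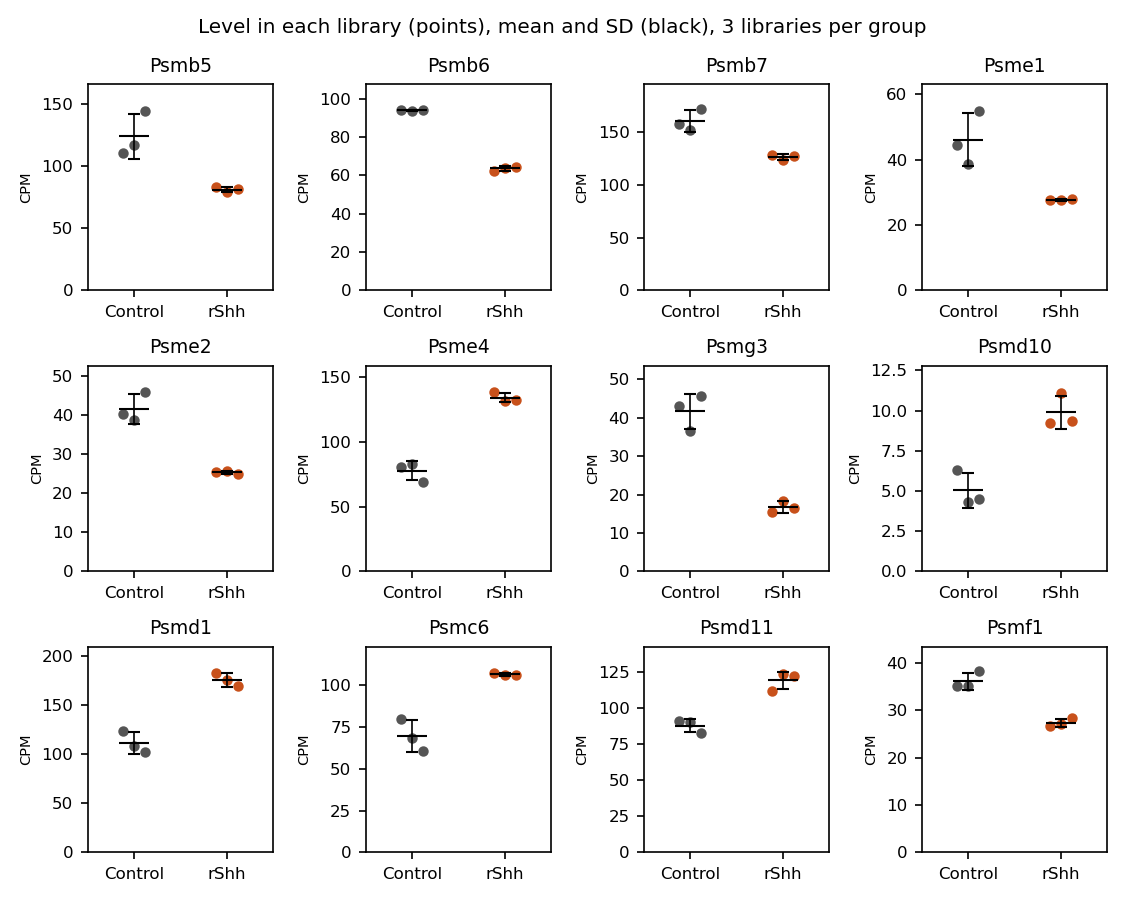
Level in CPM (vertical axes starting at 0) of 12 members in each library, with the mean (long bar) and SD (short bars) of 3 Control and 3 rShh libraries. All 12 are called members whose groups do not overlap, so the gap in each panel follows from the choice of genes. Over all 45 tested members 73.3% did not overlap, beside 68.1% of all genes. Psmb6 is at 93.6 to 94.2 CPM in Control and 62.3 to 64.3 CPM in rShh.

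The assembly chaperones held both extremes of the set. All 7 were tested: 1 was higher (14.3%, beside 31.5% of all genes), 3 were lower (42.9%, beside 28.8%) and 3 missed the threshold. Their median log2 change was -0.18. Psmg3, one of the factors that start the alpha ring, was at 43.0, 36.7 and 45.6 CPM in Control and at 15.4, 18.5 and 16.4 CPM in rShh. All rShh values were far under the lowest Control value. Psmg3 was 2.49-fold lower, a log2 change of -1.32 ± 0.11 (edgeR adjusted p = 2.94e-06), the largest fall of the 45 tested members. Psmd10, also called gankyrin, helps to build the base and was at 6.31, 4.30 and 4.50 CPM in Control and at 9.24, 11.1 and 9.35 CPM in rShh. The groups did not overlap at this low level, and Psmd10 rose by 0.97 ± 0.17 (log2, edgeR adjusted p = 7.01e-04). Psmg1, the partner of Psmg2 in another alpha ring chaperone, fell by 0.34 on the log2 scale (edgeR adjusted p = 0.0119). Psmg4, the partner of Psmg3, fell by 0.38 (edgeR adjusted p = 0.0185), a call lost in 4 of 17 other settings. Psmg2, Psmd5 and Psmd9 had log2 changes of -0.18, 0.04 and -0.13 and did not pass.

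The promoters of these 2 most changed members are printed for comparison, in the same GRCr8 assembly from RefSeq, 5′ to 3′ along the gene, with capitals for CCAAT, the box bound by NF-Y, or its reverse complement. Psmd10 (chrX:109453606-109453855, minus strand) holds 3 such boxes and Psmg3 (chr12:19923038-19923287, plus strand) holds 1.
Psmd10: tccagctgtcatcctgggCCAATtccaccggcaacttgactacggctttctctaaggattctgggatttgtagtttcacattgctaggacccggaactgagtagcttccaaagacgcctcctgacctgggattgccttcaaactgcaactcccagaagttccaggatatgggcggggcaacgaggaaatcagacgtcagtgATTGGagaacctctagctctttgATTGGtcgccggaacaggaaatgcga
Psmg3: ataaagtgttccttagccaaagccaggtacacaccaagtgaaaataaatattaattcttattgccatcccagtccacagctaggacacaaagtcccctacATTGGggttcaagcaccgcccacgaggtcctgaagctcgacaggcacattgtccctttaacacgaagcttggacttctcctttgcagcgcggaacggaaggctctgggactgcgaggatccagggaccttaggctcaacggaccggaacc
Neither holds TGACNNNGC in this window. CCAAT on either strand was in 20 of 40 member promoters (50%) and in 11385 of all 33469 (34%). It was in 2 of 6 promoters of members that rose, in 9 of 18 of those that fell and in 9 of the other 16.

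The 4 activators were split. Psme1 and Psme2, whose products form one mixed ring and are known as interferon-induced, fell together. Psme1 was at 44.5, 38.8 and 54.9 CPM in Control and at 27.6, 27.5 and 27.9 CPM in rShh, and it fell by 0.73 ± 0.11 on the log2 scale (edgeR adjusted p = 2.88e-04). Psme2 was at 40.2, 38.6 and 46.0 CPM in Control and at 25.4, 25.8 and 24.9 CPM in rShh, and it fell by 0.71 ± 0.08 (edgeR adjusted p = 4.27e-05). For both, the 3 rShh libraries were close together, the Control libraries were spread, and the groups did not overlap. The 2 genes lie 6609 bases apart on opposite strands of chromosome 15 in the files' coordinates. Psme3, the nuclear activator, was lower by a log2 change of -0.16 (edgeR adjusted p = 0.0266; lost in 6 of 17 other settings). Psme4, a large single-chain activator of the nucleus, went the other way, at 80.9, 83.3 and 69.3 CPM in Control and at 139, 132 and 132 CPM in rShh. Its rise of 0.79 ± 0.07 (log2, edgeR adjusted p = 9.12e-06) was beyond the spread of both groups.

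Psmf1, an inhibitor of the core in vitro, was at 35.1, 35.1 and 38.2 CPM in Control and at 26.6, 27.1 and 28.3 CPM in rShh. It fell by 0.40 ± 0.07 on the log2 scale (edgeR adjusted p = 9.62e-04) with no overlap. Of the 2 rows that are not subunits by function, Psme3ip1 fell by 0.48 (log2, edgeR adjusted p = 0.00275), and Psmc3ip had a log2 change of 0.04 with overlapping groups.

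Levels between genes were compared per transcript length, in FPKM summed over each gene's isoforms. In Control the mean level ran from 7.69 FPKM for Psmc3ip and 7.93 FPKM for Psmd10 to 161 FPKM for Psmb4, with Psmb11 near 0. Summed over the 8 beta members, the level was 832, 816 and 943 FPKM in Control and 659, 659.9 and 670.3 FPKM in rShh. All rShh sums lay under all Control sums, and the mean went from 864 ± 69.5 (SD, n = 3) to 663 ± 6.28 FPKM, a ratio of 0.768. The alpha sum went from 567 ± 21.8 to 534 ± 3.51 FPKM. The base and lid sum was 1005, 999.8 and 1051 FPKM in Control and 1048, 1066 and 1046 FPKM in rShh, groups that overlap. The lid alone was at 385, 386 and 403 FPKM in Control and at 406, 424 and 414 FPKM in rShh, without overlap. Chaperones went from 155 ± 9.54 to 123 ± 3.85 FPKM and activators from 113 ± 6.42 to 90.5 ± 0.741 FPKM. No test was made on these sums.

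**Figure D3:**
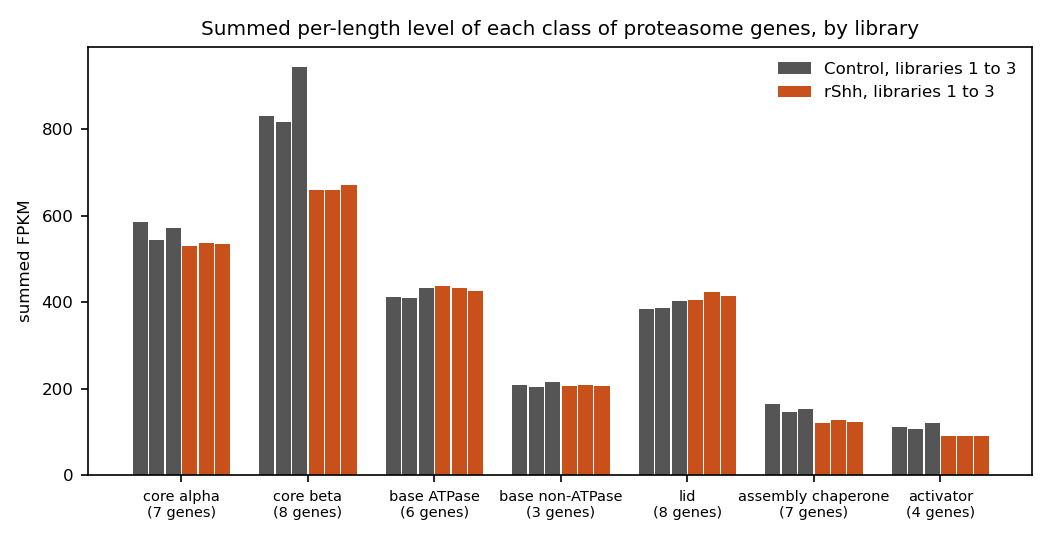
Summed isoform FPKM (vertical axis) of the members of each class in each of the 3 Control and 3 rShh libraries, 1 bar per library. The core beta bars of rShh, at 659 to 670.3 FPKM, stand under all 3 Control bars, while the bars of both base classes overlap between groups. The lid bars of rShh, at 406 to 424 FPKM, lie slightly above those of Control, at 385 to 403 FPKM.

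Ratios within a library do not depend on the scaling between libraries. The mean level per base or lid subunit over the mean level per core subunit was 0.584, 0.606 and 0.571 in Control and 0.726, 0.733 and 0.715 in rShh. The groups did not overlap, so the messages of the core and of its cap changed unequally. Within the core the 2 rings differed: rShh sums over Control sums were 0.768 for beta and 0.942 for alpha, beside 1.03 for base and lid. Median transcript length was 903 bases for the core and 1584 for base and lid. The ratio was not corrected for the trend with length described below. Beta over alpha, per subunit, went from 1.52 ± 0.116 to 1.24 ± 0.0134. Among activators, Psme1 over Psme2 stayed near 1.47 ± 0.126 in Control and 1.46 ± 0.0360 in rShh, while Psme1 over Psme4 went from 4.03 ± 1.05 to 1.40 ± 0.0373. Psme3 over Psme4 went from 3.97 ± 0.196 to 2.07 ± 0.0591.

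The spread between libraries differed by group. Over 45 members the median coefficient of variation of CPM was 6.66% in Control and 2.51% in rShh. It was highest for Psmd10 in Control, at 22%, and for Psmc3ip in rShh, at 17.7%. Among called members, Control library 3 was the highest library for Psma2, Psma7, Psmb1, Psmb3, Psmb4, Psmb5, Psmb7, Psmc4, Psmd2 and Psmd4. It was also the highest for Psme1, Psme2, Psme3ip1, Psmf1 and Psmg3, and the lowest for Psma3l, Psmc6, Psmd1, Psmd11 and Psme4. Without that library, all of these but Psmd2 kept their calls in edgeR.

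The change of a member went with the length of its main transcript. Across the 45 tested members, Spearman's rho between log2 change and length was 0.52, and across all 14775 genes it was 0.19. These are correlations across genes that share the same 6 libraries, given as a description. All genes were cut by length into 3 classes of like size. In the short class (up to 1589 bases) lay 32 members, of which 1 was higher and 16 were lower, beside 19.3% and 33.4% of all genes in that class. The middle class held 9 members with 4 higher and 2 lower (31.7% and 29.3% of its genes), and the long class, from 2854 bases, held 4 with 3 higher and 1 lower (43.5% and 23.8% of its genes). The beta ring genes are short, with a median of 842 bases, against 1009 for alpha and 1584 for base and lid genes. When the trend with length over all genes was removed, which moved the median of all genes from 0.01 to -0.10, the beta median was -0.29, and 24 of the 27 calls were kept. The cause of the relation with length was not tested.

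**Figure D4:**
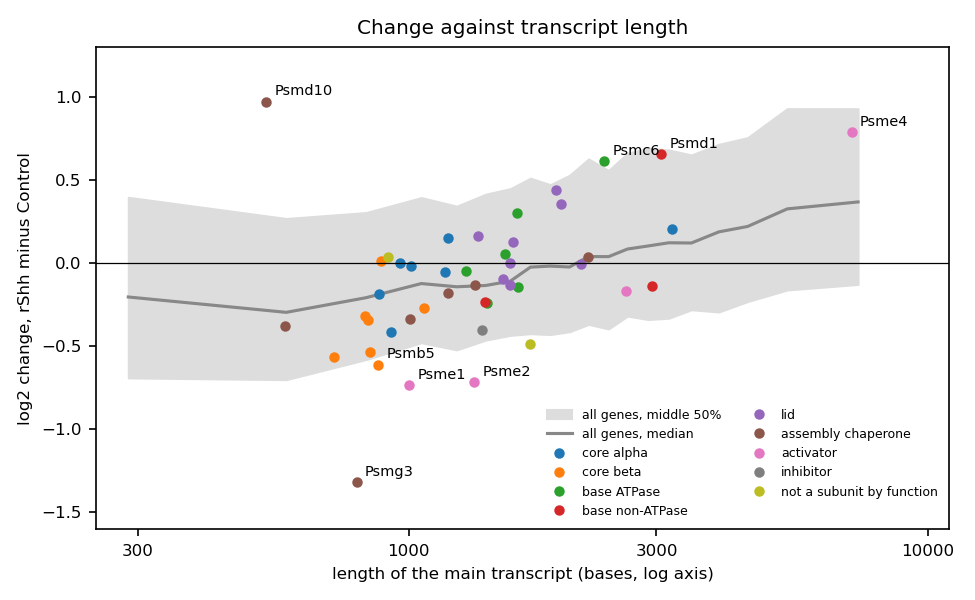
Log2 change (vertical axis, rShh minus Control) against the length of the main transcript in bases (horizontal log axis) for the 45 tested members, coloured by role, over the median (line) and middle 50% (band) of all genes in bins of length. Psme4, with 7130 bases, and Psmd1, with 3065, rose, while the beta genes lie at the short end. Psmd10, with 531 bases, rose although short.

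Isoform values gave a similar count. Of 54 isoforms of the members 49 were tested with limma on log2(FPKM + 1), and 10 were higher and 19 were lower, beside 28.8% and 27.7% of the 13699 isoforms tested (56.5% in either direction). The 19 include a retained-intron isoform of Psma4, given below, that entered the test only through its level in Control. Only 4 members had more than 1 tested isoform. For Psma4, the protein-coding isoform of 1189 bases rose from 63.9 ± 6.26 to 75.7 ± 0.860 FPKM (limma adjusted p = 0.0270). Its retained-intron isoform of 2714 bases was at 1.96 ± 0.316 FPKM in Control and 0.481 ± 0.213 FPKM in rShh. It passed the minimum mean of 1 FPKM only through Control, so that no test of it is given. The share of the latter in the 2 tested isoforms was 2.32, 3.58 and 3.10% in Control and 0.505, 0.951 and 0.436% in rShh, with no overlap. Of 2 further retained-intron isoforms of Psma4, both under the minimum, 1 was at 0.507 and 0.150 FPKM and the other at 0.0370 and 0.124 FPKM in Control and rShh. For Psme4, the isoform of 7130 bases rose from 7.13 ± 2.00 to 13.0 ± 1.61 FPKM (limma adjusted p = 0.0100), and the one of 5529 bases was at 2.58 ± 1.902 and 3.63 ± 1.94 FPKM (limma adjusted p = 0.466). The share of the shorter isoform ran from 4.03 to 39.6% within Control, so the split between these near-identical isoforms was not stable from library to library. For Psmb7 the 834-base isoform fell (105.5 to 78.9 FPKM, limma adjusted p = 0.0199) and the 971-base isoform did not pass (47.2 and 40.5 FPKM). The share of the 971-base isoform in these 2 was 42.5% in rShh library 2 and 29.1 to 31.2% in every other library. A further isoform was at 2.51 FPKM in rShh library 2 and at 0 elsewhere. The difference between the Psmb7 isoforms therefore leans on 1 library. For Psmd11 the 1917-base isoform rose (29.0 to 40.4 FPKM, limma adjusted p = 0.00292) and the 3344-base isoform did not pass (5.36 and 6.83 FPKM).

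Rows that resemble proteasome genes could share reads with them. LOC100360846, a Psmb6-like row, was at 2.86 ± 0.946 and 1.45 ± 0.471 CPM, far under Psmb6, and LOC100361067, a Psma3-like row, was at 1.48 ± 0.575 and 1.52 ± 0.106 CPM. AABR07028009, a Psme1-like row, was at 0.479 ± 0.218 and 0.771 ± 0.233 CPM. The most abundant of these 4 rows, LOC100911238, resembles Pomp, which is not a member, and was at 51.6 ± 3.47 and 48.5 ± 2.69 CPM. The authors' way of assigning such reads is not given in the sources used here, so Psmb6, Psma3l, Psme1 and Pomp carry that uncertainty.

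Other genes of the pathway were read in lists of 3 to 13 symbols. Counts in these lists, and in the marker lists above, stand beside 31.5% of all genes higher and 28.8% lower in edgeR. Several lie near those shares, and no list was tested as a set. Of the 3 interferon-inducible beta subunits, Psmb10 fell from 16.6 to 8.01 CPM, a log2 change of -1.05 (edgeR adjusted p = 7.50e-05), and Psmb8 and Psmb9 did not pass at 1.14 to 3.02 CPM on average. Of 11 subunits and accessory proteins that the name rule misses, 6 rose, 3 fell and 2 did not pass. The 3 with the smallest p all rose: Usp14, a deubiquitinase bound to the base (log2 change 0.72, edgeR adjusted p = 4.39e-06), Zfand5, an activator (0.68, 1.38e-05), and Ecpas, a scaffold that binds the base (0.75, 2.05e-05). Adrm1, Sem1 and Pomp were named after their values were seen, because Adrm1 and Sem1 are subunits and Pomp builds the core. Adrm1, a ubiquitin receptor of the base, fell by 0.31 on the log2 scale (edgeR adjusted p = 0.00735), and Sem1 and Pomp, at log2 changes of -0.12 and -0.01, did not pass.

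Among 10 tested regulators of proteasome genes 3 rose, 4 fell and 3 did not pass. Nfe2l1, the factor known to raise proteasome genes when activity is short, was at 316 and 302 CPM on average, with a log2 change of -0.07 (edgeR adjusted p = 0.372), a gene named for its role after its value was seen. Mafk, a partner of the Nfe2l factors, fell by 0.86 (edgeR adjusted p = 1.93e-06), Keap1, the adaptor that directs Nfe2l2 to degradation, fell by 0.63 (adjusted p = 1.85e-04), and Bach1, a competing repressor, rose by 0.77 (adjusted p = 3.03e-04, all edgeR log2 values). Of 7 rows for ubiquitin genes and E1 enzymes 1 rose, 3 fell and 3 did not pass. They include a 5-exon and a 1-exon row both named Rps27a, brought up after their values were seen. In rShh libraries 1 to 3 the 5-exon row, which did not pass, was at 325, 209 and 400 CPM. The 1-exon row, counted as a fall, was at 243, 345 and 162 CPM. Whether these rows share reads was not tested. Uba6, an alternative E1 enzyme, rose from 16.5 to 60.0 CPM (log2 change 1.86), while Uba1, the main E1 enzyme, fell by 0.37 on the log2 scale (edgeR adjusted p = 4.78e-07 and 1.34e-04).

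Of 12 ubiquitin shuttles and unfoldase genes 2 rose, 3 fell and 7 did not pass, with Ubqln4 and Bag6, which carry or hold substrates, at log2 changes of -0.48 and -0.36 (edgeR adjusted p = 1.84e-04 and 2.33e-04). Of 5 genes of the antizyme system, which delivers ornithine decarboxylase to the proteasome without ubiquitin, 2 rose, 2 fell and 1 did not pass. Odc1, the decarboxylase, fell by 0.70, Azin1, the inhibitor of antizyme, rose by 0.62, and Oaz1, the antizyme, fell by 0.56 (log2, edgeR adjusted p = 2.10e-06, 6.13e-06 and 1.52e-04).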

How the data were processed

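RNA-seq libraries of 3 rShh and 3 Control samples were compared. The submitters' processing notes name StringTie 1.3.4d, HISAT2 2.0.4 and cutadapt 1.9. Neither the genome build nor the strand setting of the counting is given in the sources used here. The authors deposited a gene table and an isoform table, each with read counts and FPKM for every sample, per the file headers. From the deposited counts, edgeR 4.0.16 in R 4.3.3 (TMM scaling, filterByExpr with a minimum count of 10, quasi-likelihood test, two-sided, no covariate) was fitted to all genes, with Benjamini-Hochberg adjustment over the 14775 tested and a threshold of 0.05. CPM use the TMM-scaled library sizes. From the deposited FPKM, limma 3.58.1 was fitted to log2(FPKM + 1) of all 13699 isoforms with a mean of at least 1 FPKM. DESeq2 1.42.0 and limma on gene FPKM were alternatives, beside other scalings, a replicate block and the omission of each library. The common biological coefficient of variation was 12.7%. With 3 against 3 samples, an exact permutation test of a single value cannot go below p = 0.1, so none is given. No libraries of a group agreed within sampling noise (chi-square per degree of freedom 10.5 to 50.5). Every member could be named, and of each other list the 3 genes with the smallest p; some genes that this rule selects are not reported here. The members and lists were chosen with earlier results of these data known. Deviations from the group mean gave no sign that same-numbered samples were paired, which 3 libraries per group cannot exclude. Promoters came from the RefSeq table for GRCr8 and were searched over 250 bases on both strands.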

Additional observations from a re-analysis of the deposited data

How the results depend on the processing

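Across 17 settings other than a test against a 1.5-fold change, no called member changed sign and 22 to 27 of the 27 calls were kept. In these settings 7 to 10 members were higher and 15 to 23 lower, and 7838 to 9252 genes were called. The number of genes tested ran from 11800 to 19088. limma on log2(FPKM + 1) called 7966 of 11800, and edgeR with no filter on low counts 8712 of 19088. In all 17, 7 members stayed higher (Psmc1, Psmc6, Psmd1, Psmd10, Psmd11, Psmd12 and Psme4) and 15 lower (Psma7, Psmb1, Psmb3, Psmb4, Psmb5, Psmb6, Psmb7, Psmc4, Psmd4, Psme1, Psme2, Psme3ip1, Psmf1, Psmg1 and Psmg3). The share of all genes called in all 17 settings is not given here. The other 5 calls were lost in 4 to 11 settings. Their adjusted p, in edgeR or limma, went up to 0.143 for Psmd2, 0.102 for Psme3, 0.0784 for Psma2, 0.0750 for Psmg4 and 0.959 for Psma3l. Psmc3 was called in 7, Psmd6 in 6, Psmd7 in 4, Psma4 in 3 and Psmd8 and Psmd9 in 1. Tested in edgeR against a change of 1.5-fold, a stricter question by construction, 3258 genes in place of 8914, 2 members higher (Psmd10 and Psme4) in place of 8 and 1 lower (Psmg3) in place of 19 passed.

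Class medians of the log2 change moved with the scaling, as did the median of all genes, which was 0.01 in the reported fit, -0.05 with upper-quartile scaling, -0.07 with quantile normalization and -0.10 with the length trend removed. With upper-quartile scaling the class medians were -0.0864 for core alpha, -0.0633 for base and lid, -0.249 for chaperones and -0.51 for activators. With quantile normalization they were 0.0315 for base and lid and -0.39 for activators, and with the length trend removed, a setting chosen after seeing the data, -0.0284 and -0.51. Leaving out 1 library at a time gave -0.0662 to 0.0215 for core alpha, -0.39 to -0.29 for core beta, -0.0302 to 0.0565 for base and lid, -0.27 to -0.12 for chaperones and -0.455 to -0.397 for activators, so the sign of the core alpha and of the base and lid median is not settled. Isoform counts ran from 7 to 10 higher and from 14 to 20 lower.

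The deviations of same-numbered samples correlated at -0.0751, -0.0097 and -0.0094, and no sample correlated best with its own number. With the replicate number as a block, 8440 genes were called, with 8 members higher and 17 lower. Psmb11, with 4 counts in all, was removed by the filter on low counts.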
